A study of Bos taurus with 12 samples.

Results

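The genes described here are 10 cyclic nucleotide phosphodiesterases, PDE1A, PDE3A, PDE3B, PDE4A, PDE4B, PDE4D, PDE5A, PDE7A, PDE7B and PDE8A, taken by gene name from the mRNA table. They are 10 of its 33714 rows, and all 10 had a mean of at least 0.1 FPKM (fragments per kilobase of transcript, scaled to the mapped fragments), the limit for testing, which 15402 rows passed. PDE5A stands on a row that it shares with LOC112447029, so its values are uncertain. PDE4B, PDE4D and PDE7A overlap other genes in a later RefSeq annotation of the cattle genome, and the authors describe libraries that keep the strand but not whether counting used it, so reads from overlapping genes may be among theirs. The study followed intramuscular preadipocytes, isolated from longissimus dorsi of Qinchuan calves at birth, through adipogenic induction in culture. RNA was sequenced before induction (0 d) and at 3, 6 and 9 d, in 12 libraries, 3 per day. The authors call the libraries of a day biological replicates, but the number of animals or cultures behind them is not given, so p-values measure the spread between these libraries, which may be technical. All groups were grown in medium with 15% serum to 90% confluence. The 0 d cells had received no inducer, and the other groups received dexamethasone, 0.5 mM 3-isobutyl-1-methylxanthine (IBMX) and 5 µg/mL insulin for 48 h, then insulin alone, by the labels, from which the authors' insulin dose differs. By that protocol the 3, 6 and 9 d cells were taken 1, 4 and 7 d after IBMX and dexamethasone were withdrawn, so no library was taken with IBMX in the medium, and the time since withdrawal and the time since induction cannot be told apart.

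Phosphodiesterases hydrolyse cyclic AMP and cyclic GMP and so end the signals that adenylyl and guanylyl cyclases start. The PDE4, PDE7 and PDE8 families are specific for cyclic AMP, PDE5, PDE6 and PDE9 for cyclic GMP, and PDE1, PDE2, PDE3, PDE10 and PDE11 accept both. IBMX blocks most of these families, PDE8 and PDE9 being the known exceptions, and is used in adipogenic cocktails to raise cyclic AMP, while in fat cells insulin acts through PDE3B to restrain lipolysis.

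Cells labelled as intramuscular adipocytes were first compared with markers of that type. ADIPOQ, the adipocyte hormone adiponectin, did not exceed 1.64 FPKM in any of the 12 libraries, and CEBPA, an adipogenic transcription factor, did not exceed 0.260. The rows of PPARG and PLIN1, each shared with another gene, were at 14.1 to 29.5 and 20.4 to 50.0 FPKM, CIDEA at 4.90 to 12.6 and LPL at 2.81 to 12.5. FABP4, a fatty acid carrier of fat cells, had 3.36, 3.02 and 3.52 FPKM at 0 d, 94.7, 86.2 and 92.3 at 3 d, 24.5, 26.4 and 28.4 at 6 d, then 7.59, 8.84 and 10.8 at 9 d. MYOD1, a regulator of muscle identity, had 240, 260 and 303 FPKM at 0 d but 56.6, 43.2 and 63.8 at 9 d. ADIPOQ and FABP4 were higher in every later library than in any 0 d library, CEBPA only in those of 3 d, and MYOD1 was present on every day. The counts over all 12 adipocyte markers stand with the other marker lists. The authors report total reads for each sample, but the FPKM table does not give the number of reads behind a value.

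PDE4D, a cyclic AMP-specific enzyme with many splice forms, had the highest mean level of the 10 genes on every day. Its values were 82.8, 68.5 and 53.1 FPKM at 0 d, 119, 717 and 725 at 3 d, 103, 37.6 and 39.1 at 6 d, then 183, 176 and 230 at 9 d. At 3 d replicate 1 lay far under the other two libraries yet above every 0 d library, and at 6 d replicate 1 lay above the others. Between 0 and 3 d PDE4D rose by 2.56 ± 0.65 on the log2 scale (SE, limma adjusted p = 0.00736), and from 3 to 6 d it fell by 2.89 ± 0.65 (limma adjusted p = 0.00419). Without 3 d replicate 1 these values were 3.43 (limma adjusted p = 1.0e-04) and -3.75 (7.7e-05). All fold changes here are of log2(FPKM + 0.1), which understates changes of genes with low levels, and a gene is said to rise or fall where the absolute log2 fold change is over 1 and the Benjamini-Hochberg adjusted p over all tested rows is under 0.05. At 9 d all 3 libraries were above all 0 d and 6 d libraries, but the limma fit over 12 libraries did not call either difference (log2 fold change 1.54, adjusted p = 0.0925, against 0 d, and 1.87, adjusted p = 0.0716, against 6 d). Fits of only the 6 libraries compared called both (limma adjusted p = 0.00278 and 0.0331), and leaving out 6 d replicate 1 called the second (2.34, adjusted p = 0.0456). A replicate block called neither (limma adjusted p = 0.138 and 0.119), nor did the other fits that left out a library (0.127 to 0.200 and 0.133 to 0.195). In bulk RNA of a culture, fewer cells of a type and less RNA per cell cannot be told apart. Among 11331 rows examined, replicate 1 at 3 d was over 4-fold above both other 3 d libraries in 25 and over 4-fold under both in 55, PDE4D being 1 of the latter, and in the other 11 libraries these counts ran from 20 to 44 and from 42 to 57.

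PDE7B, a second cyclic AMP-specific family, had the largest change of the 10 genes. Its levels were 9.08, 10.1 and 8.05 FPKM at 0 d, 342, 309 and 323 at 3 d, 30.7, 30.2 and 32.5 at 6 d, with 9.95, 12.7 and 11.5 at 9 d. The 3 d libraries were far above every other library, the 6 d libraries lay between, and the 9 d libraries overlapped those of 0 d. Mean FPKM was 35.8 times higher at 3 d than at 0 d (log2 fold change 5.15 ± 0.10, limma adjusted p = 1.7e-10), which placed the gene at rank 31 of 15402 rows ordered from the highest fold change. It then fell by 3.38 ± 0.10 from 3 to 6 d (limma adjusted p = 3.8e-09) and by 1.45 ± 0.10 from 6 to 9 d (9.5e-06). At 6 d it was still above 0 d (1.77 ± 0.10, limma adjusted p = 7.1e-07). The 9 d value against 0 d was 0.32, with a 95% interval from 0.09 to 0.55, and was not called.

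PDE7A, its paralog, was a much less abundant transcript, at 2.20 to 3.38 FPKM at 0 d and 2.73 to 4.88 in the induced libraries. No comparison called it. Its log2 fold changes against 0 d were 0.42, 0.59 and 0.76 at 3, 6 and 9 d, and the 95% interval at 9 d ran from 0.33 to 1.19.

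PDE4B, which like PDE4D is a target of cyclic AMP-induced transcription, alternated over the days. Levels were 13.9, 14.7 and 13.5 FPKM at 0 d, 31.1, 31.0 and 21.1 at 3 d, 9.55, 8.21 and 9.09 at 6 d, then 25.3, 24.5 and 25.2 at 9 d. No 6 d library reached any library of another day, and the 3 and 9 d libraries were all above those of 0 d. PDE4B fell by 1.60 ± 0.14 from 3 to 6 d (limma adjusted p = 6.1e-06) and rose by 1.47 ± 0.14 from 6 to 9 d (5.2e-05). Its values against 0 d were 0.96 at 3 d (limma adjusted p = 1.9e-04), -0.64 at 6 d and 0.83 at 9 d (9.7e-04), under the fold limit. Median-ratio scaling of the libraries moved the 3 and 9 d values to 1.05 and 1.01, and leaving out 3 d replicate 3 moved the 3 d value to 1.14, all past the limit.

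PDE4A, another PDE4 gene, was lowest at 3 d, at 9.89, 13.1 and 9.82 FPKM against 17.1, 18.4 and 18.6 at 0 d, with 16.9, 17.7 and 12.8 at 6 d and 18.6, 23.7 and 25.3 at 9 d. The 0 and 3 d libraries did not overlap, but the log2 fold change of -0.73 (95% interval -1.09 to -0.37, limma adjusted p = 0.00339) was under the fold limit, and no other comparison called the gene. PDE8A, a cyclic AMP-specific enzyme that IBMX does not inhibit, stayed between 11.4 and 19.3 FPKM in all 12 libraries. Its log2 fold changes were 0.24, -0.14 and -0.18 at 3, 6 and 9 d against 0 d, and the 95% intervals reached from -0.51 to 0.56 over the 3 comparisons.

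The PDE3 genes encode enzymes that bind both nucleotides and whose hydrolysis of cyclic AMP is slowed by cyclic GMP. PDE3A, the form known from heart, vessels and platelets, was at 12.6, 12.5 and 10.8 FPKM at 0 d, 3.63, 3.70 and 4.12 at 3 d, 13.4, 12.3 and 13.2 at 6 d, with 36.0, 32.8 and 37.1 at 9 d. PDE3B, the form of adipocytes and liver, was at 0.670, 0.960 and 0.810 FPKM at 0 d, 8.15, 7.77 and 7.46 at 3 d, 1.61, 1.76 and 1.42 at 6 d, then 1.22, 1.17 and 1.06 at 9 d. The pair was thus in opposite order at 3 d and on the other days: at 3 d every PDE3B library was above every PDE3A library, and on each other day every PDE3A library was above every PDE3B library. PDE3A fell by 1.62 ± 0.09 from 0 to 3 d (limma adjusted p = 1.3e-07), rose by 1.74 ± 0.09 from 3 to 6 d (1.1e-07) and rose by 1.44 ± 0.09 from 6 to 9 d (3.1e-06), ending 1.56 above 0 d (6.8e-07). PDE3B rose by 3.12 ± 0.13 from 0 to 3 d (limma adjusted p = 1.9e-08), a ratio of means of 9.58, and fell by 2.22 ± 0.13 from 3 to 6 d (3.3e-07). Its 6 d libraries all lay above those of 0 d, with a log2 fold change of 0.90 (limma adjusted p = 3.6e-04) that was under the fold limit and came to 1.03 with median-ratio scaling and to 1.01 without 0 d replicate 2. At 9 d the PDE3B value against 0 d was 0.46, with a 95% interval from 0.18 to 0.75.

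PDE1A is a calcium- and calmodulin-stimulated enzyme. It was at 25.6, 25.2 and 23.8 FPKM at 0 d, 26.5, 24.2 and 20.6 at 3 d, 19.6, 19.0 and 21.5 at 6 d, with 12.4, 7.35 and 8.34 at 9 d. All 9 d libraries were below all others, and the 0 and 3 d libraries overlapped. PDE1A fell by 1.44 ± 0.17 from 0 to 9 d (limma adjusted p = 1.2e-04) and by 1.12 ± 0.17 from 6 to 9 d (0.00119). Without 9 d replicate 2 the second value was -0.97 and no longer past the fold limit.

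PDE5A is the cyclic GMP-specific member and the target of sildenafil. Its shared row was at 20.9 to 27.6 FPKM at 0 d, 13.5, 17.6 and 14.7 at 3 d, 30.7, 32.2 and 32.7 at 6 d, then 10.1, 8.70 and 15.8 at 9 d. The 6 d libraries were the highest, and those of 3 and 9 d overlapped each other and lay under all 0 d libraries. PDE5A rose by 1.07 ± 0.20 from 3 to 6 d (limma adjusted p = 0.00149), fell by 1.50 ± 0.20 from 6 to 9 d (5.8e-04) and was 1.06 ± 0.20 lower at 9 d than at 0 d, a log2 fold change of -1.06 (0.00237). The last of these rests close to the fold limit and was not called with a pseudocount of 1 or with median-ratio scaling (-0.88), nor in fits that left out a library, at -0.94, -0.99 and -0.88 without 0 d replicate 1, 9 d replicate 1 and 9 d replicate 2. The rise from 3 to 6 d was not called with libraries scaled to an equal sum or without 3 d replicate 1 (0.98).

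**Figure D1:**
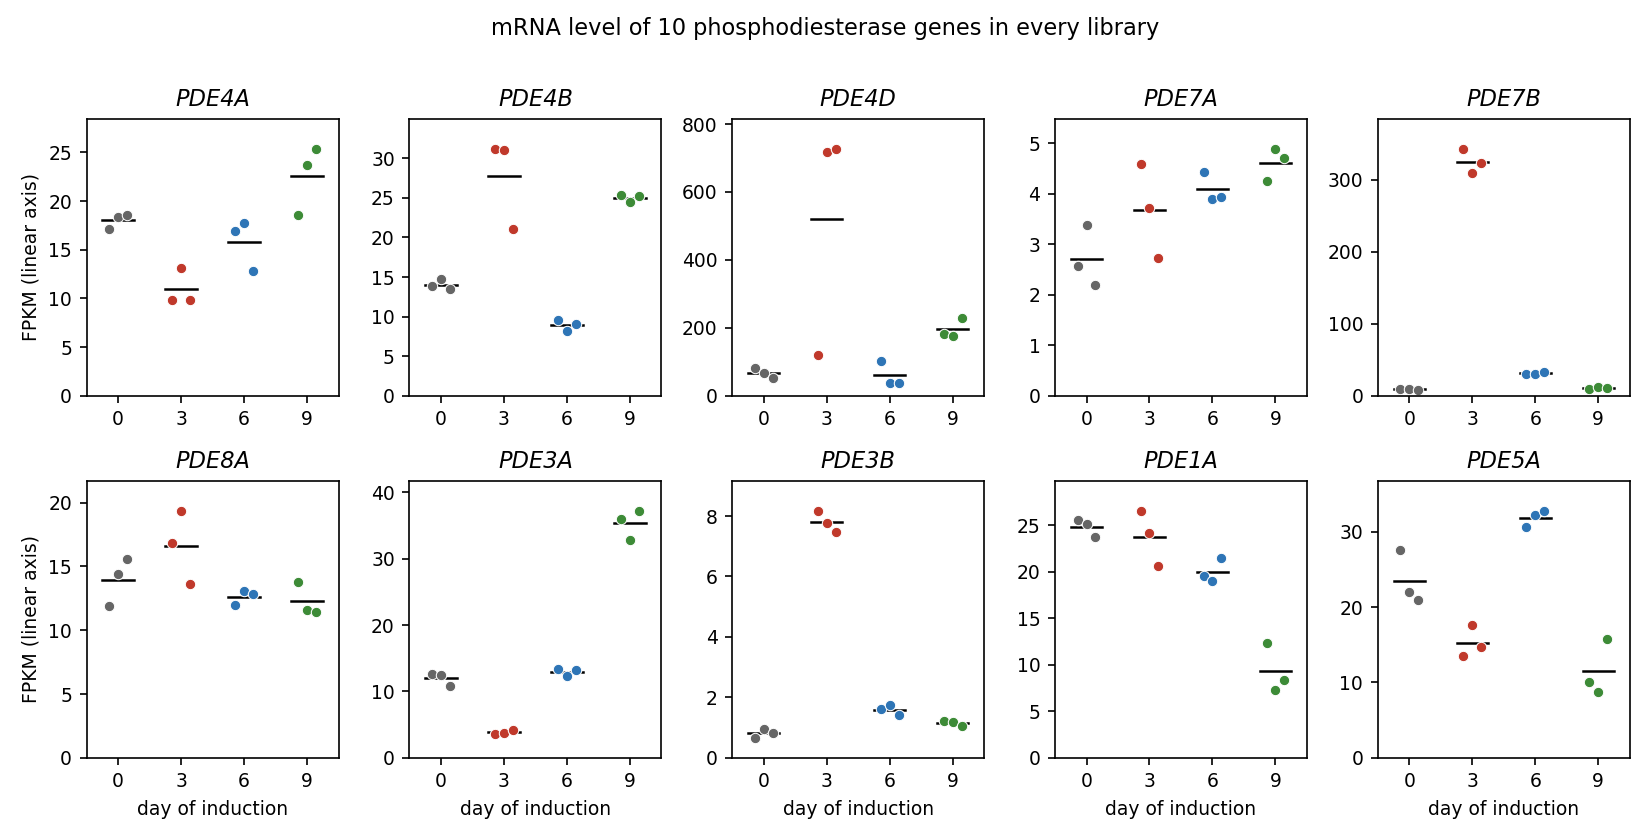
FPKM of the 10 genes (linear axes that start at 0) in each of the 12 libraries by day of induction, points being libraries and black lines day means of 3. PDE7B and PDE3B stand highest at 3 d, PDE3A at 9 d and PDE5A at 6 d, and replicate 1 of PDE4D at 3 d (119) is far from 717 and 725.

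Comparisons against 0 d share the same 3 libraries, so their results are not independent of each other and are set side by side only. At 3 d against 0 d, 4 of the 10 genes were called, where 23.3% of 15402 rows were. These were 3 higher genes (PDE3B, PDE4D and PDE7B; 8.06% of all rows were higher) and 1 lower (PDE3A; 15.2%). For 7 of the 10 no library of one day reached the range of the other, as in 59.3% of rows, and the median log2 fold change was 0.33 against -0.06 over all rows. At 6 d against 0 d only PDE7B was called, 1 of 10 beside 11.4% of rows, with 3.39% of rows higher and 7.97% lower. The days did not overlap for 6 genes (47.9% of rows), and medians were -0.01 for the 10 genes and -0.15 for all rows. At 9 d against 0 d 3 genes were called (10.9% of rows), with PDE3A higher (3.41%) and PDE1A and PDE5A lower (7.47%). The days did not overlap for 7 genes (49.9%), and medians were 0.39 and -0.19. Median-ratio scaling moved the median of all rows from -0.15 to -0.01 at 6 d and from -0.19 to -0.03 at 9 d, and the higher share of called rows from 31.3% to 44.8% at 9 d against 0 d. With that scaling PDE3B joined the genes called at 6 d and PDE4B those called at 3 and 9 d, PDE5A was no longer called at 9 d, and the uncalled values of PDE1A at 3 d and PDE8A at 6 d changed sign, to 0.02 and 0.01.

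Between consecutive later days, more of the genes were called. From 3 to 6 d it was 6 of 10 (19.1% of rows), with PDE3A and PDE5A higher (9.85%) and PDE3B, PDE4B, PDE4D and PDE7B lower (9.23%). The days were apart for 7 genes (58.6%), and the medians were -0.31 for the 10 genes and -0.09 for all rows. From 6 to 9 d it was 5 of 10 (4.43% of rows), with PDE3A and PDE4B higher (2.55%) and PDE1A, PDE5A and PDE7B lower (1.89%). Here 8 genes did not overlap (39.0%), and the medians were 0.06 and -0.04. Of the 10 genes, 7 were called in at least 1 of the 5 comparisons, and PDE4A, PDE7A and PDE8A in none. Since the genes were named with earlier results of these data known, these counts describe them and test nothing.

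**Figure D2:**
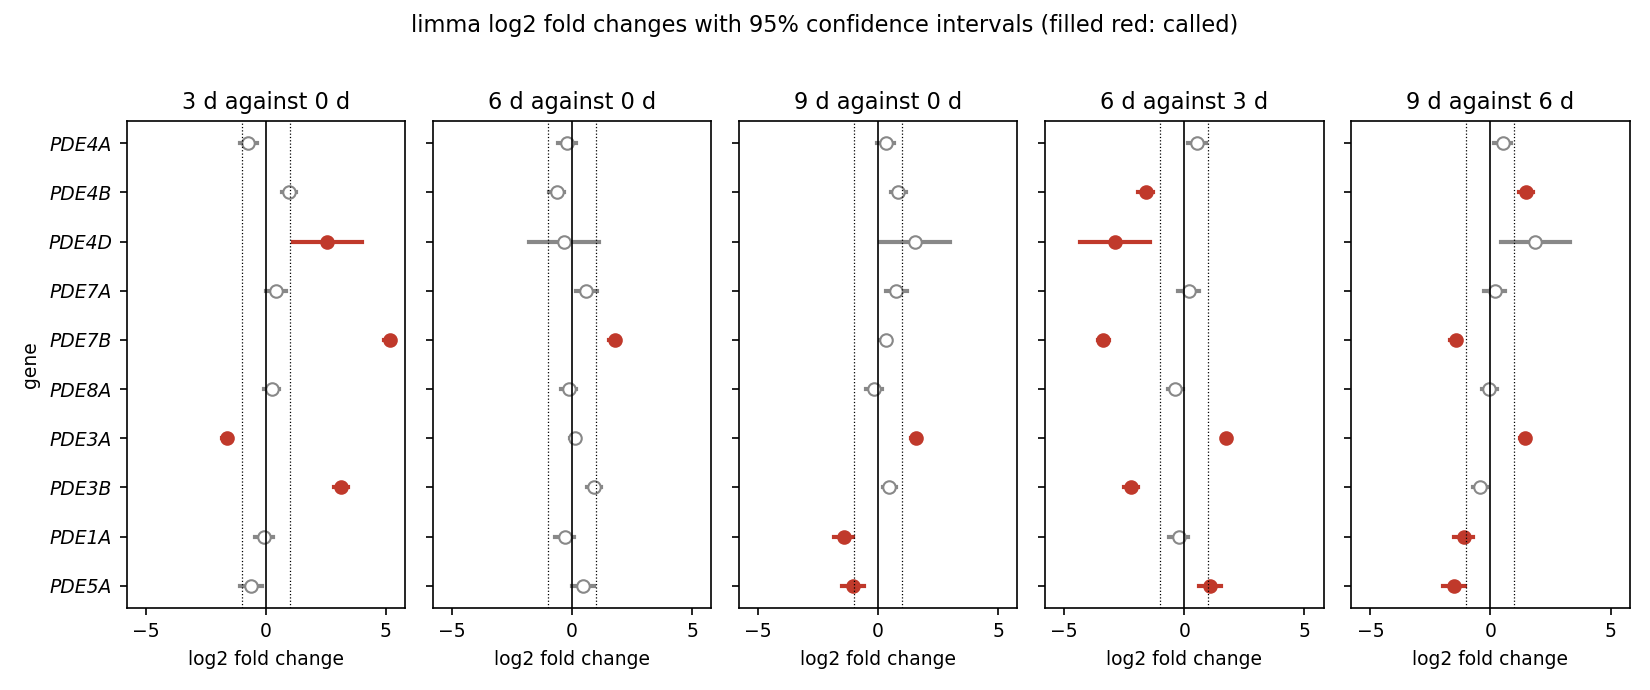
Log2 fold changes (points, limma on log2(FPKM + 0.1)) with 95% confidence intervals (bars) of the 10 genes in 5 comparisons of 3 libraries with 3; filled red points are called, and dotted lines mark the fold limit. PDE7B reaches 5.15 at 3 d against 0 d with a short bar, and PDE4D has the widest bars.

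The table holds 11 further catalytic phosphodiesterase genes, of which 6 passed the limit for testing. PDE2A, which cyclic GMP stimulates to degrade cyclic AMP, was at 6.48, 5.92 and 6.85 FPKM at 0 d, 1.55, 1.42 and 1.41 at 3 d, 0.860, 0.630 and 0.370 at 6 d, with 1.24, 1.17 and 1.36 at 9 d. Every later library was below every 0 d library. It fell by 2.06 ± 0.21 to 3 d (limma adjusted p = 1.8e-05), by 3.24 ± 0.21 to 6 d (1.7e-06) and by 2.26 ± 0.21 to 9 d (2.5e-05), each against 0 d. PDE1B, the calmodulin-stimulated paralog of PDE1A, was at 0.420, 0.530 and 0.950 FPKM at 0 d, 0.330, 0.260 and 0.280 at 3 d, 5.18, 5.01 and 4.84 at 6 d, then 1.76, 1.34 and 1.38 at 9 d. The 6 d libraries stood above all others. PDE1B rose by 3.72 ± 0.23 from 3 to 6 d (limma adjusted p = 5.1e-07) and fell by 1.69 ± 0.23 from 6 to 9 d (5.6e-04), while PDE1A in the same libraries was not called from 3 to 6 d (-0.24). PDE6C, known from cone photoreceptors, had day means of 2.50, 3.26, 2.02 and 1.05 FPKM and was lower at 9 d than at 0 d (-1.23, limma adjusted p = 0.00774), a call lost without 9 d replicate 2 (-0.98) and with a pseudocount of 1 (-0.79). PDE6A, PDE8B and PDE10A were called in no comparison. PDE10A, which accepts both nucleotides, lay between 14.3 and 36.4 FPKM, and PDE8B in 6 d replicate 3 was at 0.290 FPKM against 2.79 and 3.83 in the other 6 d libraries. PDE1C, PDE4C, PDE6B and PDE9A did not exceed 0.160 FPKM in any library, and PDE11A was listed at 0 in all 12. In the order of the 5 comparisons (3, 6 and 9 d against 0 d, 6 d against 3 d, 9 d against 6 d), 0, 1, 1, 1 and 0 of the 6 tested genes were higher and 1, 1, 2, 1 and 1 lower, with medians of 0.04, -0.21, -0.23, -0.49 and -0.04, beside the shares of all rows given above. The higher gene at 9 d was PDE1B (1.18), not called with a pseudocount of 1 (0.62) or without 0 d replicate 1 (0.96), and the lower gene from 3 to 6 d was PDE2A (-1.17), not called with a pseudocount of 1 (-0.61) or without 6 d replicate 3 (-0.90).

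The order of levels by day, per length of transcript, was led by PDE4D throughout. At 0 d its mean of 68.1 ± 14.9 FPKM (SD, n = 3) was followed by PDE1A (24.9 ± 0.943) and PDE5A (23.5 ± 3.58), which overlapped, then PDE4A, PDE10A, PDE4B, PDE8A and PDE3A, each from PDE10A on overlapping the gene above it. At 3 d PDE4D (520 ± 347) overlapped PDE7B (325 ± 16.2) through replicate 1, and both were far above PDE4B (27.7 ± 5.78). At 6 d PDE4D (60.1 ± 37.6) was followed by PDE5A (31.8 ± 1.06), PDE7B (31.1 ± 1.22) and PDE10A (27.4 ± 9.49), of which neighbours overlapped from PDE5A on. At 9 d PDE4D (196 ± 29.1) was followed by PDE3A (35.3 ± 2.25) and PDE4B (25.0 ± 0.430), none of these overlapping. PDE3B moved from rank 15 of 21 at 0 d to rank 9 at 3 d and was again at rank 15 at 6 and 9 d.

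Summed over the 21 catalytic genes, FPKM came to 240.1, 225.9 and 208.5 at 0 d, 612.8, 1197 and 1176 at 3 d, 276.8, 222.6 and 227.5 at 6 d, with 344.3, 344.0 and 411.8 at 9 d. The 3 d libraries were all highest, and replicate 1 was lower than the other two in step with its PDE4D value. Without PDE4D the sums were 157.4, 157.4 and 155.4 at 0 d, 493.5, 480.2 and 451.3 at 3 d, 173.4, 185.0 and 188.4 at 6 d, then 161.5, 167.6 and 182.1 at 9 d, so that replicate 1 at 3 d no longer stood apart from the others. Without PDE4D and PDE7B they were 148.3, 147.3 and 147.3 at 0 d and 151.8, 170.9 and 128.3 at 3 d, which overlap, so the higher sum at 3 d lay in these 2 genes. Families specific for cyclic AMP held 59.1%, 58.9% and 54.8% of the summed FPKM at 0 d, 86.0%, 91.6% and 93.4% at 3 d, 65.0%, 51.4% and 48.6% at 6 d, with 74.8%, 74.7% and 75.4% at 9 d. These shares were higher in every 3 and 9 d library than in any library of 0 or 6 d, and 0 and 6 d overlapped. Families specific for cyclic GMP held 14.7%, 14.8% and 13.6% at 0 d, 3.97%, 2.25% and 2.15% at 3 d, 14.4%, 17.2% and 18.1% at 6 d, then 4.90%, 4.73% and 5.44% at 9 d, again with 3 and 9 d apart from 0 and 6 d. PDE8 and PDE9, which IBMX does not block, held 6.85%, 7.93% and 9.00% at 0 d and 3.34%, 1.87% and 1.46% at 3 d, with 5.36%, 7.60% and 5.79% at 6 d and 4.84%, 4.26% and 3.39% at 9 d. In amount, PDE8 and PDE9 summed to 16.4, 17.9 and 18.8 FPKM at 0 d and 20.5, 22.4 and 17.2 at 3 d, which overlap. Their lower share at 3 d thus goes with the higher total. The families specific for cyclic GMP summed to 35.4, 33.4 and 28.4 at 0 d and 24.3, 27.0 and 25.2 at 3 d. At 9 d they summed to 16.9, 16.3 and 22.4. Every 3 and 9 d library was below every 0 d library in that amount. The lower shares of these families on those days thus go with lower amounts as well as higher totals. These are values of mRNA level, not of enzyme or activity, and were not tested.

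**Figure D3:**
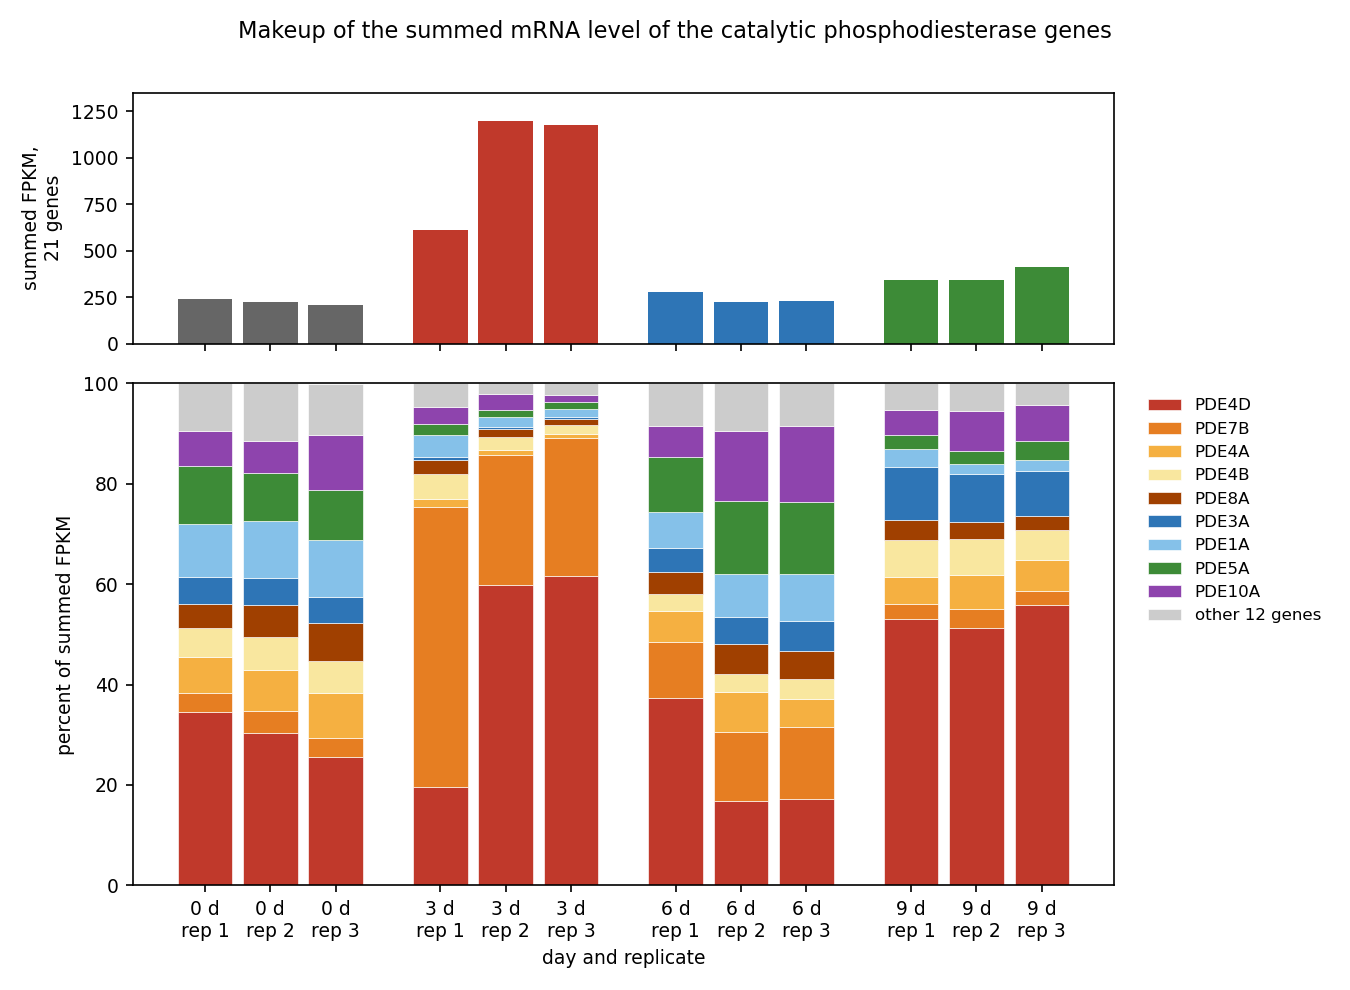
Summed FPKM of 21 catalytic phosphodiesterase genes (upper bars) and the percent of that sum held by 9 genes and the other 12 together (lower bars) in each library. PDE4D and PDE7B fill most of the 3 d bars, with PDE4D smaller in replicate 1, and the sum is highest at 3 d.

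PDE2A and PDE4D each hold a miRNA gene within their bounds in the later RefSeq annotation, and the miRNA table gives reads for both loci, which serve as another readout of the same regions. The PDE2A locus gave both arms of miR-139, mapped to chr15:52174668-52174767 on the minus strand (ARS-UCD1.2), the second of them named by the table after its human entry. The PDE4D locus gave bta-miR-582_L-1, mapped to chr20:19584355-19584506 on the plus strand, which is 1 base shorter at its left end than the reference entry. They are shown because they are the miRNAs read from these loci. Capitals mark the seed, bases 2 to 8, and the 3 seeds differ.
bta-miR-139: tCTACAGTgcacgtgtctccagt
hsa-miR-139-3p: tGGAGACGcggccctgttggagt
bta-miR-582_L-1: tACAGTTGttcaaccagttact
Libraries held 1851720 to 5636256 miRNA reads. Scaled to these totals (RPM), bta-miR-139 was at 2120, 1964 and 2102 RPM at 0 d, 1245, 1176 and 1205 at 3 d, 516, 558 and 589 at 6 d, then 491, 469 and 396 at 9 d. The arm hsa-miR-139-3p was at 69.5, 78.0 and 68.6 at 0 d, 28.2, 31.0 and 30.7 at 3 d, 6.58, 14.9 and 12.5 at 6 d, with 11.4, 8.28 and 9.93 at 9 d. On both arms all 0 d libraries were highest, the 3 d libraries came next, and the 6 d libraries lay below them, as did those of 9 d. With edgeR, bta-miR-139 fell by 1.87 on the log2 scale to 6 d (adjusted p = 3.9e-06) and by 1.93 to 9 d (2.3e-06), and its 3 d value of -0.79 (0.00883) was under the fold limit. The other arm fell by 1.27 to 3 d (edgeR adjusted p = 0.0122), by 2.62 to 6 d (2.9e-05) and by 2.59 to 9 d (2.9e-05), the first of these not called without 3 d replicate 1 (adjusted p = 0.0710) or 3 d replicate 2 (0.0640). Of 1180 miRNA rows tested, edgeR called 6.02% at 3 d, 11.4% at 6 d and 19.4% at 9 d against 0 d. PDE2A mRNA was lowest at 6 d, and edgeR, which scales libraries by TMM, gave nearly the same change of bta-miR-139 for 6 and 9 d. The miR-582 form had 0 reads in all 0 and 3 d libraries, 15, 12 and 5 at 6 d, then 6, 0 and 6 at 9 d, and was not called by edgeR, so its reads are too few to compare the days.

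**Figure D4:**
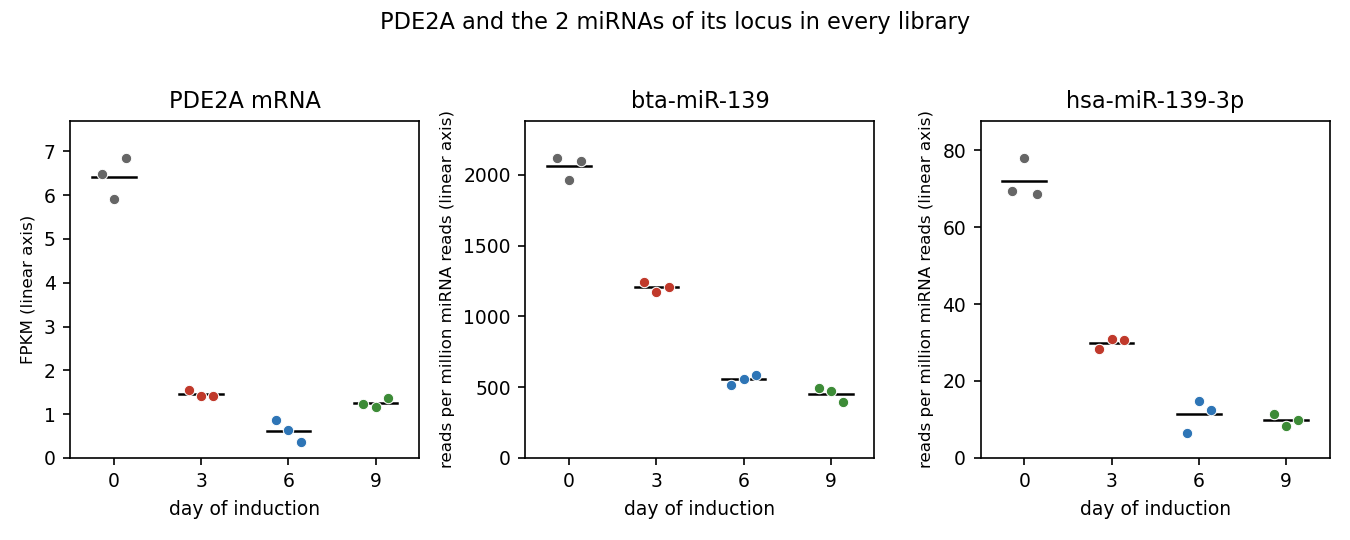
PDE2A FPKM and RPM of both miR-139 arms (linear axes from 0) by day, points being libraries and lines day means of 3. All 3 are highest at 0 d in every library.

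The genes most like each changed member, by Pearson's r of log2(FPKM + 0.1) over the 12 libraries, which fall into 4 days and are not 12 independent points, were taken as a description with no test. For PDE7B they were F2RL2, FLVCR1 and LPIN1 (each r = 0.996), and for PDE3B BMPER (0.996), SLC29A1 (0.994) and LPIN1 (0.991). For PDE3A they were EPAS1 (0.994), FBLN7 (0.992) and MFGE8 (0.990). PDE1A was closest to EIF1AX (0.970), MAN2A1 (0.952) and RYR3 (0.943), and PDE5A to FARSB (0.973), PDHA1 (0.959) and DCTN1 (0.935). PDE4B had FAM43A (0.950), LGMN (0.949) and HIPK1 (0.946). PDE4D had the lowest of these values, with ZC3H6 (0.935), CNTNAP1 (0.922) and DOCK4 (0.921). LPIN1 stands on the lists of both PDE3B and PDE7B.

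Genes that make the cyclic nucleotides and their ligand receptors were followed in the same fits, the counts and medians being given in the order of comparisons above, where all rows had medians of -0.06, -0.15, -0.19, -0.09 and -0.04. Of 6 tested adenylyl cyclases 1, 1, 1, 1 and 0 were higher and 3, 1, 2, 0 and 1 lower (medians -0.65, -0.27, -0.32, 0.47 and -0.11). ADCY6 was the most abundant of them at a mean of 36.5 FPKM and was called in no comparison. ADCY3 was at 23.0, 21.9 and 23.8 FPKM at 0 d and 10.2, 11.1 and 11.8 at 3 d, all lower (log2 fold change -1.05, limma adjusted p = 1.8e-04), a call lost with a pseudocount of 1 (-0.99) and with median-ratio scaling (-0.96). Of 6 tested guanylyl cyclases and natriuretic peptide receptors 0, 0, 0, 2 and 1 were higher and 4, 4, 4, 0 and 0 lower (medians -2.49, -1.42, -1.31, 0.58 and 0.40). NPR3, the receptor that clears natriuretic peptides, was at 490, 492 and 487 FPKM at 0 d, 24.4, 24.8 and 23.8 at 3 d, 143, 168 and 143 at 6 d, with 226, 220 and 218 at 9 d. It fell by 4.32 from 0 to 3 d (limma adjusted p = 3.8e-11) and rose by 2.63 from 3 to 6 d (9.6e-10). GUCY1A1, a subunit of the nitric oxide receptor that makes cyclic GMP, was at 706, 285 and 384 FPKM at 0 d, 38.7, 27.1 and 37.4 at 3 d, 45.0, 37.0 and 51.3 at 6 d, then 189, 101 and 185 at 9 d. Its partner subunit GUCY1B1 was at 18.2, 19.0 and 30.1 FPKM at 0 d and 9.34, 7.28 and 9.24 at 3 d. Both subunits were lower in every 3 d library than in any 0 d library, by 3.64 (log2 fold change -3.64, limma adjusted p = 9.2e-06) and 1.34 (-1.34, 0.00139).

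Of 7 tested Gs-coupled receptors and their G protein, with 1 planned entry left out, 2, 1, 1, 0 and 2 were higher and 2, 1, 0, 1 and 1 lower (medians -0.28, 0.33, 0.33, 0.28 and 0.13). GNAS, the stimulatory G protein, was the most abundant at a mean of 163 FPKM and was not called. ADORA2B, an adenosine receptor, was at 1.51, 1.63 and 1.51 FPKM at 0 d, 5.54, 5.56 and 5.65 at 3 d, 1.97, 1.98 and 1.96 at 6 d, then 6.38, 6.09 and 6.03 at 9 d. Like PDE4B, it was higher at 3 and 9 d than at 6 d. Its 6 d libraries all lay above those of 0 d, whereas those of PDE4B lay below. ADORA2B rose by 1.79 to 3 d (limma adjusted p = 9.2e-09), fell by 1.46 to 6 d (log2 fold change -1.46, 6.1e-08) and rose by 1.60 to 9 d (4.0e-07). PTGER4, a prostaglandin E2 receptor, fell by 1.36 from 0 to 3 d (limma adjusted p = 0.00843). ABCC5, a nucleotide exporter and the only tested gene of its list, was 1.19 higher at 3 d (limma adjusted p = 8.8e-04), which was 0.99 with a pseudocount of 1, and was called in no other comparison.

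Of 14 tested effectors, the proteins that bind or restrain what cyclic nucleotides activate, 1, 0, 0, 2 and 1 were higher and 4, 5, 3, 4 and 0 lower (medians -0.48, -0.32, -0.46, 0.29 and -0.03). PRKAR1A, a regulatory subunit of protein kinase A, was the most abundant at a mean of 661 FPKM, and its log2 fold change of 0.69 at 3 d was under the fold limit. PRKG1, the cyclic GMP-dependent kinase, was at 0.500, 1.08 and 1.00 FPKM at 0 d, 6.90, 5.11 and 6.88 at 3 d, with 0.470, 0.370 and 1.37 at 9 d. Its 3 d libraries stood above all others (2.78 against 0 d, limma adjusted p = 5.4e-04), and 6 d overlapped 0 d. POPDC3, a cyclic AMP-binding membrane protein, fell by 2.64 from 0 to 9 d (limma adjusted p = 6.5e-05). BVES, another such protein, fell by 2.23 from 3 to 6 d (limma adjusted p = 1.0e-07). Of 15 tested anchoring proteins and phosphodiesterase partners 0, 1, 0, 1 and 0 were higher and 3, 3, 2, 2 and 1 lower (medians -0.02, -0.34, -0.29, -0.19 and 0.05). AKAP1 was the most abundant at a mean of 554 FPKM and was not called. AKAP12 and AKAP5, which tether protein kinase A at the cell edge, fell by 2.02 and 1.66 from 0 to 9 d (limma adjusted p = 0.00470 and 0.00322). Calls of AKAP12 at 3 and 6 d against 0 d (-1.32 and -1.62) were lost in 4 and 3 of 6 fits that left out a library. AKAP2, on a row shared with PALM2, was at 8.55, 13.5 and 6.53 FPKM at 0 d, 92.3, 80.5 and 91.5 at 6 d, then 6.14, 63.1 and 5.01 at 9 d, so that 9 d replicate 2 lay near the 6 d libraries and the others did not. It rose by 3.26 from 0 to 6 d (limma adjusted p = 0.00835). From 6 to 9 d AKAP2 was at -2.80 (limma adjusted p = 0.0291), a call lost in 5 of 6 fits that left out a library (such as -2.15, 0.0959, without 9 d replicate 3) and with 6 libraries only (0.114), and kept without 9 d replicate 2 (-3.96, 2.2e-05).

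Of 9 tested genes of the CREB family and its coactivators 1, 0, 0, 0 and 0 were higher and 0, 0, 1, 1 and 0 lower (medians 0.01, -0.10, -0.27, -0.37 and 0.01). CREB3 was the most abundant at a mean of 269 FPKM. CREB5 was at 31.8, 37.2 and 27.0 FPKM at 0 d and 207, 115 and 327 at 3 d, higher in all 3 libraries (2.64, limma adjusted p = 0.00487). ATF1 fell by 1.33 from 3 to 6 d (limma adjusted p = 0.00377), with day means of 14.4, 24.9, 9.74 and 15.5 FPKM at 0, 3, 6 and 9 d. CREB1, the founding factor, was at -1.01 from 0 to 9 d (limma adjusted p = 0.0101), with 7.67 and 6.50 FPKM in 2 of the 9 d libraries and 15.1 in replicate 3. The call was lost with median-ratio scaling (-0.83), with a pseudocount of 1 (-0.93) and with 6 libraries only (limma adjusted p = 0.0610). It was also lost in 4 of 6 fits that left out a library (such as -0.77 without 9 d replicate 2). Of 11 tested genes known to respond to cyclic AMP 4, 2, 2, 0 and 2 were higher and 0, 2, 0, 4 and 2 lower (medians 0.63, 0.26, 0.67, -0.39 and 0.68). IBMX and dexamethasone were given and withdrawn together, so responses of these genes to either cannot be told apart. PER1, a clock gene, was at 0.700, 0.920 and 0.840 FPKM at 0 d, 6.85, 6.72 and 7.24 at 3 d, 2.39, 2.23 and 2.35 at 6 d, with 0.850, 0.990 and 0.990 at 9 d. It rose by 2.94 to 3 d (limma adjusted p = 7.7e-09), and its levels fell back through 6 d, with the days ordered as for PDE7B. The nuclear receptors NR4A1 and NR4A3 were both higher at 9 d than at 6 d, by 1.83 (limma adjusted p = 1.9e-06) and 2.19 (1.1e-04). NR4A1 was at 38.4, 35.8 and 38.8 FPKM at 6 d and 133, 141 and 128 at 9 d. DUSP1, a phosphatase of stress kinases, was the most abundant at a mean of 544 FPKM and was higher at 3 d (1.16) and 6 d (1.53) than at 0 d.

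PDE3B is the enzyme by which insulin restrains lipolysis, and genes on both sides of that step were counted. Of 12 tested genes of the route from the insulin receptor to PDE3B 2, 1, 0, 0 and 1 were higher and 1, 2, 1, 2 and 1 lower (medians -0.36, -0.38, -0.33, -0.19 and 0.05). AKT2 was the most abundant at a mean of 1070 FPKM and was not called. PIK3R1, a regulatory subunit of phosphoinositide 3-kinase, was at 25.4, 24.9 and 23.7 FPKM at 0 d, 137, 108 and 107 at 3 d, 27.0, 26.9 and 25.8 at 6 d, then 26.9, 20.2 and 24.0 at 9 d. Like PDE3B, it was high in all 3 d libraries and no others (2.23, limma adjusted p = 1.2e-07). The receptor substrates moved in opposite directions. IRS2 rose by 2.20 to 3 d (limma adjusted p = 1.7e-08), and IRS1, at 0.660 to 2.23 FPKM, fell by 1.31 to 3 d (8.1e-07) and by 1.47 to 6 d (9.4e-07), values that were -0.78 and -0.86 with a pseudocount of 1. Of 8 tested lipolysis genes 5, 2, 2, 1 and 0 were higher and 1, 0, 1, 4 and 1 lower (medians 1.06, 0.61, 0.21, -0.99 and -0.56). FABP4 rose by 4.75 to 3 d (limma adjusted p = 7.4e-10). MGLL, the monoglyceride lipase and the most abundant of the list at a mean of 106 FPKM, fell by 1.96 to 3 d (9.2e-04), and its call at 9 d against 0 d (-1.04), the only lower one of the list there, was lost in 4 of 6 fits that left out a library and with median-ratio scaling (-0.86). ABHD5, the activator of adipose triglyceride lipase, fell by 1.58 from 3 to 6 d (limma adjusted p = 8.3e-05), which was -0.93 with a pseudocount of 1. Its day means were 1.02, 2.20, 0.683 and 0.790 FPKM at 0, 3, 6 and 9 d, so the fall came after a higher level at 3 d.

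**Figure D5:**
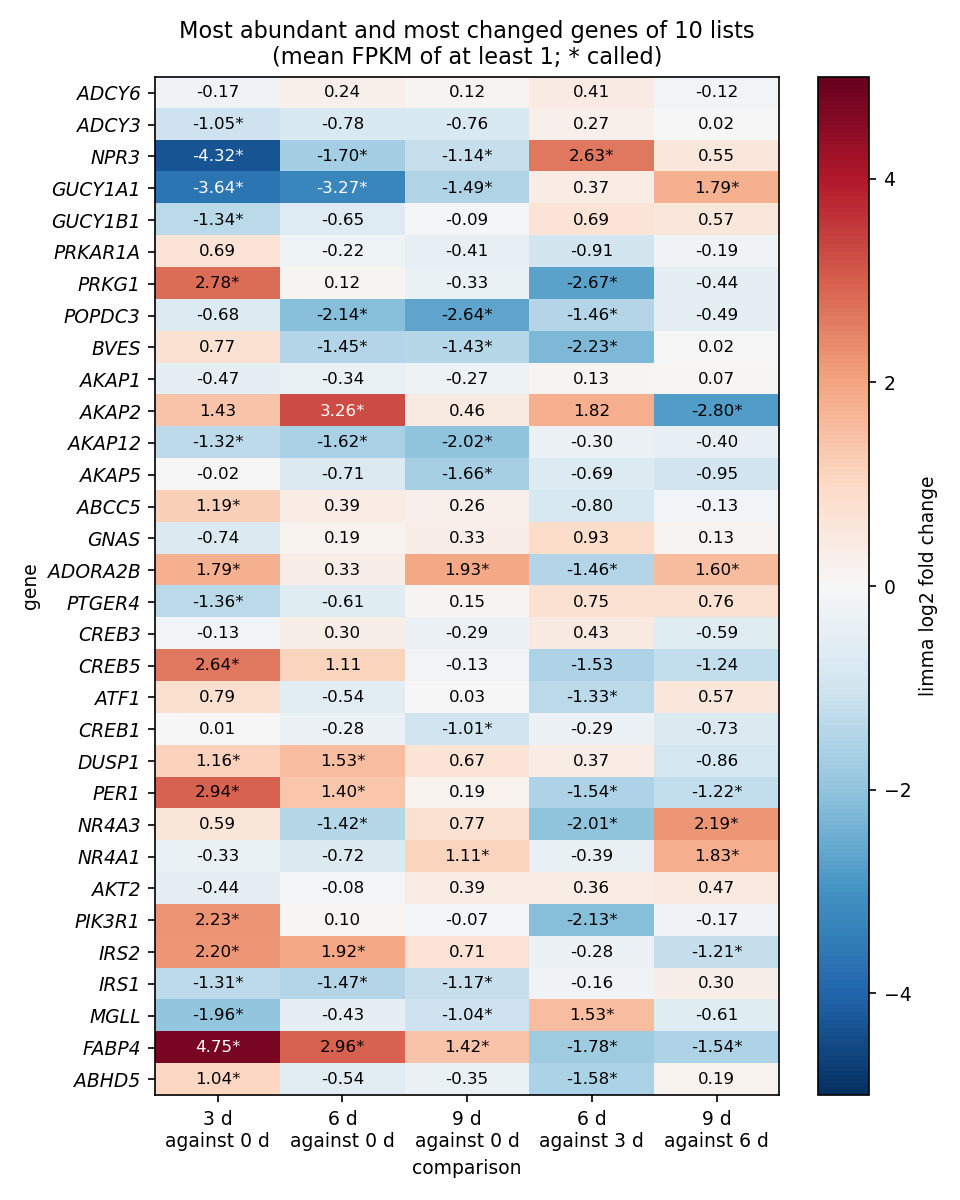
Limma log2 fold changes (colour and printed value) of the most abundant gene and at most 3 called genes with a mean FPKM of at least 1 from each of 10 lists around the phosphodiesterases in 5 comparisons, asterisks marking calls. Of the genes shown, NPR3 (-4.32), GUCY1A1 (-3.64) and FABP4 (4.75) are the most extreme at 3 d against 0 d.

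Markers of other cell types the cultures could hold moved over the same days. Of 9 tested skeletal muscle markers 0, 0, 0, 3 and 1 were higher and 7, 7, 8, 2 and 0 lower (medians -1.43, -1.97, -1.76, -0.43 and 0.06). Their summed FPKM, led by DES, was 840.4, 882.0 and 956.2 at 0 d, 271.6, 299.8 and 296.3 at 3 d, 402.9, 381.9 and 424.2 at 6 d, with 330.6, 297.9 and 330.2 at 9 d. CKM, the muscle creatine kinase, was at 132, 136 and 130 FPKM at 0 d and 2.51, 5.05 and 2.28 at 3 d, and MYH1, on a row shared with MYH2, was at 13.9, 13.9 and 15.4 FPKM at 0 d but 0.420, 0.240 and 1.01 at 3 d. The marker higher from 6 to 9 d was CKM (1.05), a call lost in 5 of 6 fits that left out a library and with a pseudocount of 1 (0.99). Of 7 tested smooth muscle and pericyte markers 0, 3, 0, 6 and 0 were higher and 5, 1, 3, 0 and 4 lower (medians -3.41, 0.51, -0.64, 4.41 and -1.38). Their sum, led by ACTA2, was 2163, 2196 and 2348 at 0 d, 169.3, 191.7 and 182.1 at 3 d, 2242, 2414 and 2380 at 6 d, then 992.6, 914.3 and 1032 at 9 d. The days of these sums, low at 3 d, high at 0 and 6 d and between at 9 d, were those on which PDE5A was low and high, except that PDE5A at 9 d was no higher than at 3 d. CNN1 and LMOD1, further contractile genes, rose by 5.41 and 5.09 from 3 to 6 d (limma adjusted p = 3.6e-09 and 3.9e-09). MYH11 of the same list went the other way, at 23.7, 26.3 and 19.8 FPKM at 0 d, 60.6, 59.7 and 51.2 at 3 d, 44.6, 27.6 and 29.4 at 6 d, then 28.3, 3.82 and 29.7 at 9 d. Its 3 d libraries were above all others, and no comparison called it.

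Of 12 tested adipocyte markers 6, 6, 6, 1 and 2 were higher and 2, 0, 0, 4 and 1 lower (medians 1.04, 1.01, 0.94, -0.46 and -0.02), 4 of these genes standing on the lipolysis list as well. Their summed FPKM, led by PLIN1 on a row shared with PEX11A, was 65.31, 74.79 and 74.83 at 0 d, 205.8, 206.7 and 215.0 at 3 d, 107.6, 114.8 and 121.4 at 6 d, with 108.5, 91.74 and 110.4 at 9 d. DGAT2, a triglyceride synthase, was at 0.0400, 0 and 0.180 FPKM at 0 d and 20.3, 22.1 and 23.1 at 3 d. The hormone gene LEP was at 2.17, 2.39 and 2.47 FPKM at 0 d, 0, 0.210 and 0 at 3 d, then 25.3, 16.6 and 19.6 at 9 d. LEP was thus lower in every 3 d library and higher in every 9 d library than in any 0 d library. From 6 to 9 d LEP was called (1.36), but in none of 6 fits that left out a library. Of 9 tested fibroblast and preadipocyte markers 5, 4, 3, 1 and 1 were higher and 3, 2, 1, 1 and 0 lower (medians 1.56, 0.03, 0.48, -0.38 and 0.21). Their sum, led by COL3A1, was 119546, 116323 and 123667 at 0 d, 167439, 173338 and 175272 at 3 d, 135038, 130854 and 130573 at 6 d, then 223118, 212381 and 225569 at 9 d. PDGFRA, a progenitor receptor, rose by 2.54 to 3 d (limma adjusted p = 2.5e-10) and fell by 2.52 to 6 d (5.2e-10), while DCN rose by 2.16 and NT5E by 1.82 to 9 d against 0 d. Others of the list fell from 0 to 3 d, PDGFRB by 1.38 (limma adjusted p = 1.7e-08) and COL1A1 by 1.68 (6.5e-09), as was called for CD34 at under 1 FPKM.

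Endothelial and immune markers were at low levels. Of 4 tested endothelial markers 0, 0, 1, 0 and 1 were higher and 0, 1, 0, 2 and 0 lower (medians -0.03, -0.14, -0.22, -0.43 and 0.50), and their sum, led by VWF, stayed between 2.590 and 3.820 FPKM, with PECAM1, KDR and EMCN under 0.1 in all libraries. Of 4 tested immune markers 3, 1, 2, 0 and 0 were higher and 0, 0, 0, 1 and 0 lower (medians 1.47, 0.49, 0.89, -0.65 and -0.03). The sum, led by CD14, was 2.070, 1.160 and 1.100 FPKM at 0 d, 5.050, 5.860 and 5.720 at 3 d, 2.350, 3.340 and 5.500 at 6 d, with 4.460, 3.970 and 3.320 at 9 d, and PTPRC and ITGAM were listed at 0 in all libraries. CD14 was at 0.780, 0.480 and 0.760 FPKM at 0 d and 2.02, 2.66 and 2.52 at 3 d, higher at 3 d by 1.71 (limma adjusted p = 2.7e-05) and at 9 d by 1.59 (1.1e-04), the latter 0.94 with a pseudocount of 1. CD79A, at 0.730, 0 and 0 FPKM at 0 d and 1.67, 2.17 and 2.05 at 3 d, was called on each later day against 0 d, but the 6 and 9 d calls of CD79A were lost in 4 and 5 of 6 fits that left out a library (such as 2.26, limma adjusted p = 0.0923, at 6 d without 6 d replicate 3), and with 6 libraries only. None of 6 tested proliferation markers was called by limma in any comparison (medians 0.51, -0.07, -0.53, -0.54 and -0.48), and their sum, led by AURKB, was 88.35, 74.34 and 72.97 FPKM at 0 d, 101.2, 85.14 and 111.0 at 3 d, 70.45, 72.37 and 69.36 at 6 d, then 47.28, 50.96 and 51.80 at 9 d, lower in every 9 d library than in any other. The part of any of these cell types in the phosphodiesterase levels was not tested.

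Circular RNAs, in which a downstream splice site is joined back to an upstream one, were read from the same loci. Of 14070 rows 41 were hosted by 9 catalytic phosphodiesterase genes, with 338 of 95674 back-spliced reads, in libraries of 5358 to 10729 such reads. PDE8A hosts gave 144 of these reads, PDE5A 97, PDE10A 45 and PDE3A 30, while PDE4D gave 9 and PDE7B and PDE3B 1 each. The loci with the most circular reads were thus not those with the highest mRNA. Of the 41 rows 13 had at least 5 reads and were tested, and edgeR called 0 of them at 3, 6 and 9 d against 0 d, where it called 0.813%, 0.530% and 0.566% of 2828 tested rows. At an unadjusted p under 0.05 there were 0, 1 and 0 of the 13 with edgeR (177, 138 and 179 of all 2828 rows) and 0, 1 and 0 with DESeq2 (22, 17 and 15), which also called 0. Summing junctions within 5 bp of each other, chosen after seeing the data, left 11 rows, 0 of them called. The most read was circRNA1442 of 3 exons of PDE5A (chr6:5870873-5876472, plus strand, ARS-UCD1.2), with 4, 3 and 0 reads at 0 d, 4, 8 and 3 at 3 d, 12, 10 and 11 at 6 d, then 5, 13 and 7 at 9 d. The row circRNA4609, which starts 1 bp away, has 3 reads, all in 0 d replicate 3. Every 6 d library was above every 0 d library, with or without these reads, as for PDE5A mRNA, but 9 d overlapped 6 d, where the mRNA did not. From PDE8A came circRNA2088 (chr21:22731152-22747200, plus strand) with 69 reads and circRNA1137 (chr21:22731151-22732818, plus strand) with 58, the latter ending where circRNA3389 does, which starts 1 bp away and has 6.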

How the data were processed

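RNA of 12 libraries, grouped by the day in their labels, was analysed from the processed tables. Deposited mRNA values are FPKM, which the authors obtained with HISAT2 and StringTie 1.3.0 (versions per the submitters' notes). Deposited circRNA values are counts of back-spliced reads, which the authors called with CIRCExplorer2 and CIRI. Deposited miRNA values are expected counts, since the authors divided reads shared by several miRNAs, and these estimated counts were rounded. The sources differ on whether libraries were poly(A)-selected or depleted of ribosomal RNA.

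The study states edgeR, which FPKM do not allow. All mRNA rows with a mean FPKM of at least 0.1 were fitted with limma 3.58.1 (trend) on log2(FPKM + 0.1), circRNAs with at least 5 counts and miRNAs with at least 10 with edgeR 4.0.16 (TMM, quasi-likelihood), with 4 day means estimated from the 12 libraries together, in R 4.3.3. A row is called when its log2 fold change exceeds 1 in size at an adjusted p (Benjamini-Hochberg) under 0.05. The miRNA test was chosen after seeing the data. Alternatives were other pseudocounts, filters and scalings, DESeq2 1.42.0 for counts, the 6 libraries compared alone, a replicate block and leaving out each library.

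The members and lists were chosen with earlier results of these data known. Of 200 list entries 195 matched a row, and 1 planned entry of the receptor list was left out after its result was seen, for a reason other than its values. Named were all catalytic phosphodiesterase genes, the most abundant gene of each list and at most 3 of its called genes with a mean FPKM of at least 1 and the largest fold change, the 3 genes with the highest Pearson r with each called member, and circRNAs of these hosts with at least 20 reads. ADIPOQ, CEBPA, PPARG, CIDEA, LPL, MYH11, PDGFRB, COL1A1, CD34, circRNA3389 and circRNA4609 were named after their values were seen.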

Additional observations from a re-analysis of the deposited data

How the results depend on the processing

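Of the 50 log2 fold changes of the 10 genes (5 comparisons), 38 kept their direction and their side of the threshold under all 15 alternatives, and of the 19 called ones 16 did, the exceptions being PDE1A from 6 to 9 d and PDE5A at 9 d against 0 d and from 3 to 6 d. Uncalled values near 0 changed sign: median-ratio scaling gave 0.02 for PDE1A at 3 d and 0.01 for PDE8A at 6 d against 0 d, and leaving out single libraries gave -0.15 to 0.03 for PDE1A at 3 d against 0 d, -0.02 to 0.35 for PDE7A from 3 to 6 d and -0.14 to 0.00 for PDE8A from 6 to 9 d. The number of the 10 genes called at 6 d against 0 d was 2 with median-ratio scaling and 1 to 2 when a library was left out. With a pseudocount of 1, which shrinks fold changes of low genes, mRNAs called in the 5 comparisons numbered 2184, 967, 888, 1688 and 368 in place of 3585, 1749, 1675, 2939 and 683, and with a mean FPKM of at least 1, which tests fewer rows, 1114 at 9 d against 0 d. CircRNA calls at 3, 6 and 9 d (23, 15 and 16) were 0, 0 and 0 with DESeq2, 3, 0 and 0 with at least 20 counts, and 10 to 21 at 3 d and 9 to 12 at 6 d when a library was left out, 10 being without 3 d replicate 3 and 9 without 0 d replicate 3; the cause was not tested. MiRNA calls fitted with 6 libraries only, a setting chosen after seeing the data as the miRNA test was, were 40 at 3 d and 74 at 6 d in place of 71 and 134, with fewer samples behind them.

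Whether replicate numbers pair the samples cannot be told from the correlations between libraries, which were weak. Deviations from the day means correlated from -0.0981 to 0.112 in 18 same-numbered pairs (median 0.022), 2 of them over 0.1. In 36 others they correlated from -0.19 to 0.183 (median -0.0108), 3 of them over 0.1. A replicate block gave 3591, 1746, 1683, 2933 and 657 called mRNAs, left the counts of the 10 genes at 4, 1, 3, 6 and 5, and gave 17, 9 and 13 circRNAs and 72, 146 and 221 miRNAs. The FPKM table does not give the reads behind a value.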
